A study of Mus musculus with 6 samples.

Results

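The AP-1 subunits examined here are the products of 10 genes of the Fos, Jun and related basic leucine zipper (bZIP) families. They are Fos, Fosb, Fosl1, Fosl2, Jun, Junb, Jund, Atf3, Maff and Batf. All probe sets whose platform gene symbol is exactly one of these names were taken, which gave 14 of the 45101 probe sets on the array. They stand for 10 of the 18193 genes that have a probe set with a single symbol. RNA was measured with oligonucleotide arrays in liver of SRC-2 null mice (3 arrays) and of wild-type mice (3 arrays). All animals were female, on a C57 background, ovariectomized at 6 weeks of age and killed 2 weeks later under Avertin anaesthesia by cervical dislocation, so both genotypes shared the loss of the ovaries and the manner of death. SRC-2, encoded by Ncoa2, is a coactivator that binds nuclear receptors and other transcription factors. The design of the null allele, the hour of killing, the feeding state and whether an array stands for 1 animal are not stated in the labels.

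AP-1 is a dimer of bZIP proteins that binds short DNA elements. Fos proteins cannot pair with themselves and need a Jun partner, whereas Jun proteins can pair with one another or with Fos and ATF proteins. Fos, Jun, Junb, Atf3 and Maff are immediate early genes: their transcription rises within minutes of growth factor, cytokine or stress signals, without new protein synthesis, and their messengers decay fast. In liver, Jun and Fos are known for their rise after partial hepatectomy and tissue injury.

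The promoters of Fos, Jun, Maff and Atf3 are shown because these 4 members had the smallest p-values between the genotypes, a choice made after their values were seen, and because the cyclic AMP response and AP-1-like elements near the start sites of Fos and Jun are textbook examples of control by this protein family. The sequences are from RefSeq (GRCm38.p6) and run from 250 bases before to 50 bases after the annotated start, and capitals mark matches to TGACNTCA or TGACGT on either strand. Fos lies at chr12:85473640-85473939 on the plus strand, Jun at chr4:95052173-95052472 on the minus strand, Maff at chr15:79347270-79347569 on the plus strand and Atf3 at chr1:191183284-191183583 on the minus strand. Maff has 3 annotated starts, and the window with the most matches is shown.
Fos: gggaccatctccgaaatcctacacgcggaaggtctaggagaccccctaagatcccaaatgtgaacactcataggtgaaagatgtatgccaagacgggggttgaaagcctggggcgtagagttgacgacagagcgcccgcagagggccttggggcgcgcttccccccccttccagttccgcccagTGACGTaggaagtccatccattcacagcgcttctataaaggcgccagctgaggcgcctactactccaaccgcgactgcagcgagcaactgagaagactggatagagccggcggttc
Jun: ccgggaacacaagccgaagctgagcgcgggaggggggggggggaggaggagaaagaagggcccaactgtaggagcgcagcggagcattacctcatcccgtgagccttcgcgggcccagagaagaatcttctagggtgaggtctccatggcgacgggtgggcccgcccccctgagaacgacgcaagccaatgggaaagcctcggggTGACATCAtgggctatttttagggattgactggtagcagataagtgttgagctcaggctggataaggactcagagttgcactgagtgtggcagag
Maff: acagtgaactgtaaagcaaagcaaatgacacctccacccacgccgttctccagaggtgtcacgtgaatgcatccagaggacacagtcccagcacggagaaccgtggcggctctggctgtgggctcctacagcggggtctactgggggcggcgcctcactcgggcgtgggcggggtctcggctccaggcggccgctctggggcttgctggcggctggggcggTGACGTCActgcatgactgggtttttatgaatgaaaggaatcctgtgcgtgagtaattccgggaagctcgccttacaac
Atf3: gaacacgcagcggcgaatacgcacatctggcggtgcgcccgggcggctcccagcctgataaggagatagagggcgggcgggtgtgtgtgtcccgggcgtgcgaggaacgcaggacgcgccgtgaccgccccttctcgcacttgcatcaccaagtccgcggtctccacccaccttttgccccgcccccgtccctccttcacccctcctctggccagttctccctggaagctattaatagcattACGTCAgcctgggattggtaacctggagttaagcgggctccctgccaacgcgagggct

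In Fos the match TGACGT began 66 bases before the start, and in Jun the match TGACATCA began 45 bases before it. The Maff window held the full palindrome TGACGTCA, 29 bases before the start, which contains the TGACGT motif on both strands. Atf3 carried TGACGT on the opposite strand, beginning 8 bases before the start. Windows were found for 9 of the 10 genes, 11 windows in all. TGACGT was present in 4 of the 11 windows, of 4 genes (Fos, Atf3, Maff and Batf), and in 7.51% of all 32851 promoter windows of this length. TGACNTCA was present in 3 of the 11 windows, of 2 genes (Jun and Maff), and in 8.83% of all windows. The pattern TGANTCA (7.81% of all windows), with any base at N, is wider than the classical AP-1 element and takes it in. Neither this pattern nor a CArG box (1.63%), the element bound by serum response factor, was found in any of the 11 windows. That says only that these letters are not in this stretch.

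Ncoa2, the gene targeted in these mice, was lower in null liver. Its brightest probe set, 1435233_at, read 5.60, 5.44 and 5.86 in null liver, against 7.74, 7.92 and 8.53 in wild-type liver (limma adjusted p = 0.000353). Of the other 3 Ncoa2 probe sets, 1435234_at was lower as well (4.19 on average in null liver, below the filter of 4.21 used here, against 6.36 in wild-type liver, adjusted p = 0.0002 among all single-gene probe sets), whereas 1446827_at (0.07) and 1450458_at (-0.27, adjusted p = 0.617) were not called. The mean of all 4 gave a log2 fold change of -1.20, against -2.44 for the brightest. Hepatocyte identity transcripts were high in both genotypes: of 8 measured markers none was called in limma (0 at an unadjusted p under 0.05), and Alb, which encodes albumin, averaged 14.41 in null and 14.44 in wild-type liver. Replicate 3 of both genotypes stood apart from replicates 1 and 2. Over all genes tested, the deviations of the 2 replicate 3 arrays from their group means correlated at 0.516, against 0.18 and 0.203 for the pairs of replicates 1 and 2.

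Of the 10 members, 3 were lower in SRC-2 null liver and none was higher. Fos fell 7.14-fold, Jun 3.99-fold and Maff 1.68-fold. Of the 10 genes, 8 were bright enough to be tested, that is, had a mean over the 6 arrays of at least 4.21 on the log2 scale, the median of all probe sets. The 3 called genes passed limma's test at an adjusted p under 0.05, and the other 5 tested genes did not. Among all 11894 genes tested, 3.13% were called lower and 1.55% higher in null liver, 4.67% in all. Over all 10 members, with no filter, the mean was lower in null liver for 9, Fosl1 being the exception, and the median log2 difference was -0.40, against 0.01 over all 18193 genes. All 3 null arrays lay below all 3 wild-type arrays for 5 of the 10 genes (Fos, Jun, Maff, Atf3 and Batf), an arrangement seen in 9.89% of the 18193 genes and in 12.5% of the genes tested. One of the 8 tested genes, Atf3, passed the filter through its wild-type level only. In bulk liver RNA, fewer cells of a type and less RNA per cell cannot be told apart.

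**Figure D1:**
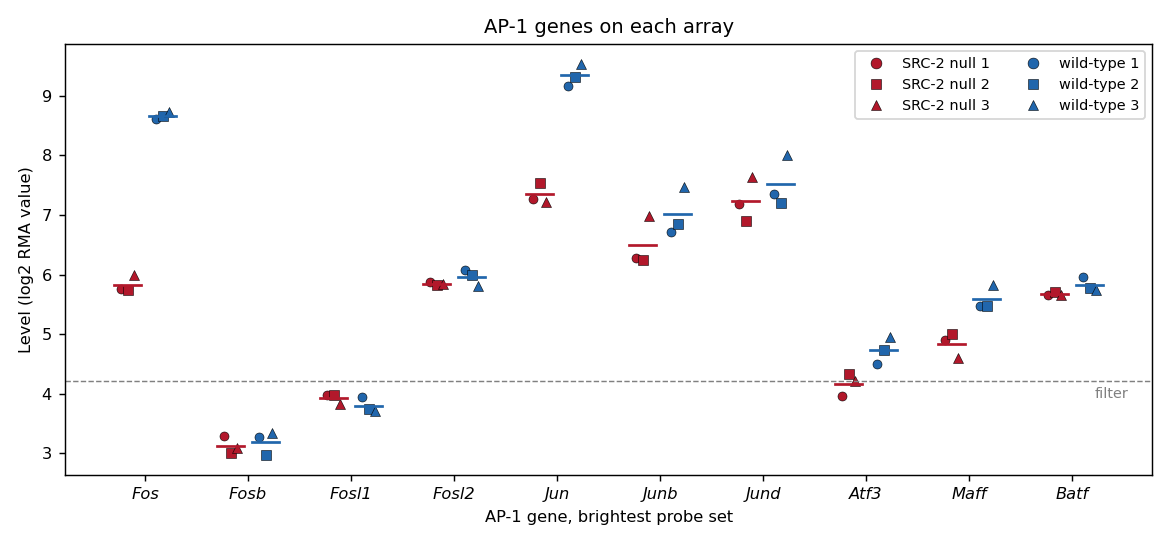
Log2 RMA values (vertical axis) of the brightest probe set of each AP-1 gene (horizontal axis) on the 3 SRC-2 null arrays (red) and the 3 wild-type arrays (blue), with the replicate number as the marker shape, group means as bars and the filter of 4.21 as a dashed line. Null and wild-type points are clearly apart for Fos and Jun, and in Junb and Jund replicate 3 of each genotype lies above replicates 1 and 2.

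With the replicate number as a block, 5 members were called lower (Fos, Jun, Junb, Atf3 and Maff), where 7% of all genes tested were called in either direction and 4.41% as lower. For replicates 1 and 2 the values show no pairing by number (correlations of 0.18 and 0.203 within numbers, 0.166 and 0.206 across them). In replicates 1 and 2 alone, where 2.77% of all genes tested were called in either direction and 1.97% as lower, 3 members were called lower. These were Fos (log2 fold change -2.89, adjusted p = 0.000499), Jun (-1.84, adjusted p = 0.00413) and Maff (-0.52, adjusted p = 0.0477).

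Among the Fos family, Fos, the prototype subunit and the partner with the strongest activating domain, had the lower level in every null array. It read 5.76, 5.74 and 5.99 on the 3 SRC-2 null arrays, against 8.61, 8.67 and 8.72 on the 3 wild-type arrays (log2 RMA values). The groups were far apart, with the highest null value well below the lowest wild-type value. The means were 5.83 ± 0.14 in null and 8.66 ± 0.06 in wild-type liver (SD, n = 3 each), a log2 fold change of -2.84 (SE 0.10, 95% CI -3.05 to -2.62, limma adjusted p = 3.14e-06). Ordered from the most negative log2 fold change, Fos stood at place 5 of the 11894 genes tested. The difference was -2.85, -2.93 and -2.73 between arrays of replicate numbers 1, 2 and 3. The SD of Fos among the wild-type arrays lay at the 19.4th percentile of all genes tested and that among the null arrays at the 58.7th.

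Fosl2, which encodes FRA-2, a Fos-related protein without the strong activating domain of Fos, did not pass the test. Its brighter probe set, 1422931_at, read 5.87, 5.83 and 5.84 in null and 6.07, 6.00 and 5.80 in wild-type liver, and the groups overlapped. The log2 fold change was -0.11 (95% CI -0.32 to 0.10, limma adjusted p = 0.621). The dimmer probe set, 1437247_at, read 4.31, 3.98 and 4.23 in null and 4.41, 4.39 and 4.47 in wild-type liver. Its groups did not overlap, but it did not pass either (log2 fold change -0.25, adjusted p = 0.357 among all single-gene probe sets).

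Fosb and Fosl1, the genes of FOSB and FRA-1, were too dim to be tested with the others. Fosb read 3.30, 3.004 and 3.08 in null and 3.27, 2.97 and 3.35 in wild-type liver. The groups overlapped and the values were close to the low end of the scale, where RMA values hold mostly background. Fosl1 read 3.99, 3.98 and 3.84 in null and 3.95, 3.74 and 3.72 in wild-type liver with its brighter probe set, 1417487_at. In its dimmer probe set, 1417488_at, the values were 3.77, 3.19 and 3.03 in null and 3.04, 3.22 and 3.40 in wild-type liver. With the filter removed, the log2 fold change was -0.07 for Fosb (95% CI -0.35 to 0.22) and 0.13 for Fosl1 (95% CI -0.09 to 0.36), and neither was called.

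Among the Jun family, Jun, the subunit that binds DNA both as a partner of Fos and on its own, was lower in null liver with both of its probe sets. The brighter one, 1417409_at, read 7.27, 7.54 and 7.22 in null liver, against 9.17, 9.32 and 9.54 in wild-type liver. No null array came near the wild-type range. A log2 fold change of -1.998 (SE 0.13, 95% CI -2.29 to -1.71, limma adjusted p = 7.66e-05) placed Jun at position 17 of the 11894 genes ordered from the most negative. The other probe set, 1448694_at, read 6.16, 6.36 and 6.37 in null and 7.77, 7.69 and 8.08 in wild-type liver. Tested as a probe set of its own it gave a log2 fold change of -1.55 (SE 0.12, limma adjusted p = 0.000947). Within replicate numbers 1, 2 and 3 the brighter probe set differed by -1.90, -1.78 and -2.32.

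Junb encodes a Jun protein that activates weakly and can restrain the activity of c-Jun. It read 6.28, 6.24 and 6.98 in null and 6.72, 6.86 and 7.46 in wild-type liver, and the groups overlapped because replicate 3 was the highest array in both genotypes. The log2 fold change of -0.51 did not pass (SE 0.24, 95% CI -1.08 to 0.05, limma adjusted p = 0.339). Between arrays of the same replicate number the differences were -0.44, -0.62 and -0.48, close to one another. With the replicate number as a block the SE was 0.07 and the adjusted p was 0.0144, so Junb was called lower in that fit. With replicate 3 of both genotypes against replicates 1 and 2 as the block, a fit that called 8.26% of all genes, the adjusted p was 0.00696, and in replicates 1 and 2 alone, with 2 arrays a group, it was 0.054.

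Jund, the Jun gene with steady expression in most resting tissues, followed the same replicates. It read 7.19, 6.90 and 7.64 in null and 7.35, 7.20 and 8.004 in wild-type liver with probe set 1449117_at, with replicate 3 again the highest of each genotype. Jund differed by a log2 fold change of -0.28 (95% CI -0.83 to 0.28, limma adjusted p = 0.634), and with the replicate block the adjusted p was 0.0896. The differences within replicate numbers 1, 2 and 3 were -0.16, -0.31 and -0.36. A second probe set, 1440265_at, lay below the filter and pointed the other way, at 4.195, 4.39 and 4.04 in null and 4.06, 3.91 and 3.93 in wild-type liver. The SD of Junb within a genotype lay at the 99.1st percentile of all genes tested among the null arrays and at the 98.5th among the wild-type arrays, and that of Jund at the 98.3rd and the 99.1st.

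**Figure D2:**
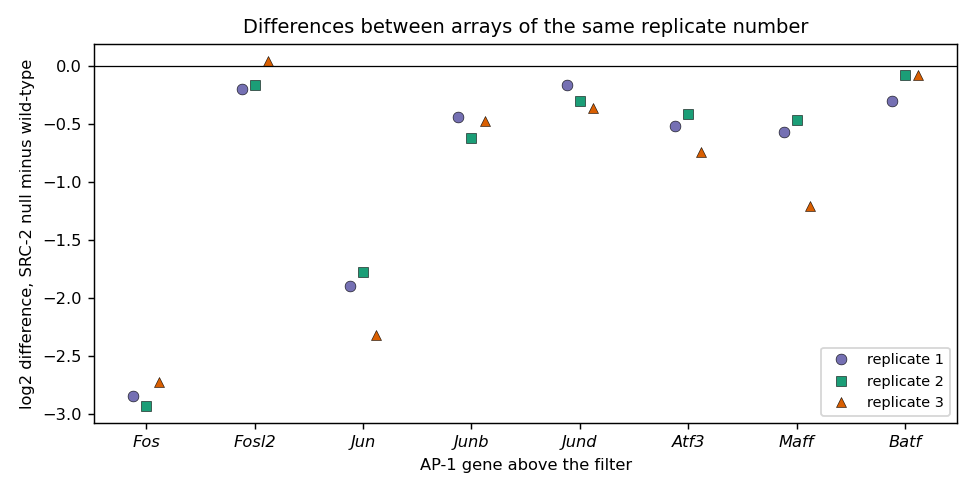
Log2 difference between the SRC-2 null and the wild-type array of the same replicate number (vertical axis) for the 8 tested AP-1 genes (horizontal axis), 1 point per replicate number. Junb lies between -0.62 and -0.44 in all 3, while Maff reaches -1.21 in replicate 3.

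The remaining members are bZIP proteins that pair with Jun or with other factors. Maff encodes a small Maf protein, which has no activating domain and pairs with itself or with CNC proteins such as NRF2. It read 4.90, 5.01 and 4.61 in null liver, against 5.47, 5.47 and 5.82 in wild-type liver, with no overlap. Its log2 fold change of -0.75 passed the test (SE 0.14, 95% CI -1.07 to -0.44, limma adjusted p = 0.0196). The difference was -0.57, -0.47 and -1.21 within replicate numbers 1, 2 and 3. The call was lost without null replicate 1 (adjusted p = 0.0676) and without wild-type replicate 2 (adjusted p = 0.0503, limma).

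Atf3, a stress-induced factor that represses transcription as a homodimer, read 3.97, 4.33 and 4.21 in null liver, against 4.49, 4.74 and 4.95 in wild-type liver. The groups did not overlap, and the null mean of 4.17 lay below the filter, so the gene was tested through its wild-type level. The log2 fold change was -0.56 (SE 0.14, 95% CI -0.88 to -0.24), short of a call at a limma adjusted p of 0.0666. It was called with the replicate block (adjusted p = 0.0185) and without wild-type replicate 1 (adjusted p = 0.0479).

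Batf encodes a factor of lymphocytes and dendritic cells that lacks an activating domain and pairs with Jun proteins. It read 5.66, 5.70 and 5.66 in null and 5.97, 5.78 and 5.74 in wild-type liver. Each null array was below each wild-type array by a small margin, and the log2 fold change of -0.16 did not pass (95% CI -0.36 to 0.05, limma adjusted p = 0.431). Some B and plasma cell markers, from cells that use Batf, were lower in null liver. Of 5 tested, 3 were called lower and none higher in limma (0 higher at an unadjusted p under 0.05). The 3 called were Ighm, Jchain and Mzb1, whereas Cd79b was not called (limma adjusted p = 0.152). Over all genes tested, 3.13% were called lower. The median log2 fold change of the markers was -1.38 over the 5 and -0.996 over all 6 on the array. One of the 5, Cd79a, a subunit of the B cell receptor, had a null mean of 4.14, below the filter, and was tested through its wild-type mean of 4.75. It was not called (adjusted p = 0.218), but was with the replicate block (adjusted p = 0.00598). Their summed log2 level was 25.6 to 27.0 in null and 34.0 to 35.5 in wild-type arrays. Of 5 T and NK cell markers tested, 1 was called lower and none higher in limma (0 higher at an unadjusted p under 0.05). With the replicate block another was called lower. Their median log2 fold change was -0.40, and -0.28 over all 7 on the array. Of the 5, 2 had null means below the filter, the one called among them, and were tested through their wild-type levels. The part of lymphocytes in the Batf value was not tested.

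**Figure D3:**
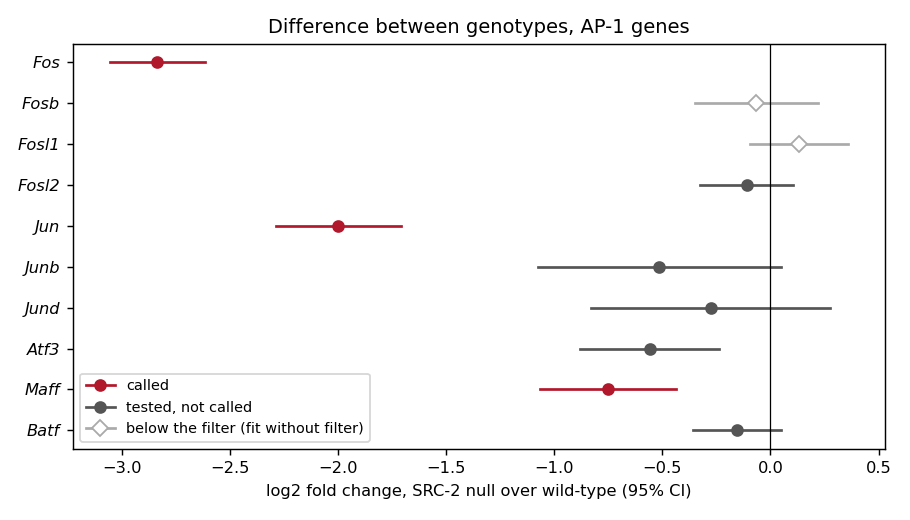
Log2 fold change of SRC-2 null over wild-type liver (horizontal axis) with its 95% confidence interval from limma for each AP-1 gene (vertical axis), with called genes in red, tested but uncalled genes in dark grey and the 2 genes below the filter, fitted without it, as open diamonds. The intervals of Fos (-3.05 to -2.62) and Jun (-2.29 to -1.71) lie far from 0, and those of Junb and Jund are the widest.

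With the probe sets fitted separately, 4 of the 10 member probe sets above the filter were called lower and none higher. These were the Fos probe set, both Jun probe sets and the Maff probe set (log2 fold change -0.75, adjusted p = 0.0432). Of all 19623 single-gene probe sets tested, 1.79% were called lower and 2.41% in either direction. The remaining 6 member probe sets above the filter had log2 fold changes from -0.56 (Atf3) to -0.11 (Fosl2).

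Around these subunits, several of the other immediate early genes were lower too. Of 29 listed, 25 were tested, and 10 were called lower and 15 were not called in limma. None was called higher, with 1 higher at an unadjusted p under 0.05. Over all genes tested, 3.13% were called lower and 4.67% in either direction. The median log2 fold change was -0.42 over the 25 tested genes and -0.19 over all 29 on the array. With the replicate block, which called 4.41% of all genes tested lower, 11 were called lower. The addition was Nfkbia, the inhibitor of NF-kappaB (log2 fold change -0.45, limma adjusted p = 0.0287 with the block and 0.0705 without it). Egr1, a zinc finger factor, fell 3.77-fold (log2 fold change -1.92, SE 0.16, adjusted p = 0.00038). Gadd45g, a stress sensor, fell 2.92-fold. Dusp1 and Dusp6, phosphatases that switch off the MAP kinases, fell 2.45-fold and 2.44-fold. The other 6 called, named after their values were seen, were Klf10, Ier2, Gadd45b, Ccn1, Btg2 and Csrnp1, with falls of 1.37-fold (Btg2) to 1.75-fold (Ier2). The call of Btg2 was lost without any one array (adjusted p 0.0541 to 0.106), that of Csrnp1 without any array but null replicate 3 (0.0525 to 0.146) and with the mean of all its probe sets (log2 fold change -0.30, adjusted p = 0.209), and that of Ccn1 without null replicate 1 (0.0884) or null replicate 2 (0.0911).

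Upstream kinases and factors of AP-1 showed little difference. Of 22 tested members of this list, from receptors through the MAP kinase cascades to serum response factor and its partners, 1 was called higher and none lower in limma, with 2 higher and 2 lower at an unadjusted p under 0.05. The list median was -0.03, and 4.67% of all genes tested were called in either direction. The one called was Egfr, a growth factor receptor, at 1.30-fold (adjusted p = 0.0403), and its call was lost without any one array (adjusted p 0.0613 to 0.152) and with the mean of all its probe sets (log2 fold change 0.17, adjusted p = 0.311). Map2k3 and Map2k6, kinases upstream of p38, had log2 fold changes of 0.24 and -0.25, and Mrtfa, a partner of serum response factor, had -0.32. None of these 3 passed.

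The next list holds factors that act on the decay of AU-rich messengers or on the turnover of Jun proteins, in either direction: Elavl1, for one, stabilises such messengers. Of 13 tested, 2 were called lower and none higher in limma (2 higher at an unadjusted p under 0.05), with a list median of -0.01. The share called lower over all genes tested was 3.13%. Zfp36, which binds AU-rich elements in unstable messengers and is itself an immediate early gene, fell 1.97-fold (log2 fold change -0.98, adjusted p = 0.000477). Zfp36l2, its relative, fell 1.43-fold (adjusted p = 0.0299), a call lost without wild-type replicate 2 or 3 or null replicate 1 or 2 (adjusted p 0.0731 to 0.113). With the mean of all its probe sets the log2 fold change of Zfp36l2 was -0.18. Det1, a component of a ubiquitin ligase that targets c-Jun, and Cops5, known as Jun activation domain-binding protein and as a stabiliser of c-Jun, were not called, at log2 fold changes of 0.38 and 0.22.

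Other bZIP genes, the possible partners and competitors of AP-1, were mostly not called. Of 22 tested, 1 was called lower and none higher in limma (1 higher at an unadjusted p under 0.05), with a list median of -0.05. The share called in either direction over all genes tested was 4.67%. Atf6, a sensor of endoplasmic reticulum stress, fell 1.46-fold (adjusted p = 0.032). That call was lost without any array but null replicate 3 (adjusted p 0.0691 to 0.12), and with the mean of its probe sets the log2 fold change was -0.23. Atf5, a stress-response activator, had a log2 fold change of 0.73 (adjusted p = 0.0782), Cebpb, a liver and macrophage factor, had -0.54 (adjusted p = 0.153) and the small Maf gene Mafg had -0.22. With the replicate block, which called 7% of all genes tested, 3 of the list were called in limma. Atf5 was higher (adjusted p = 0.00719), and Cebpb (adjusted p = 0.0197) and Atf6 (adjusted p = 0.009) were lower.

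Textbook target genes of AP-1 moved in both directions. Of 24 listed, 14 were tested, 3 were called lower, 1 higher and 10 not. Over all genes tested, 3.13% were called lower and 1.55% higher. The median log2 fold change was -0.14 over the 14 tested and -0.01 over all 22 on the array. Cd44, a hyaluronan receptor, was 2.49-fold lower (log2 fold change -1.32, adjusted p = 0.000724), Lgals3, galectin-3, 1.96-fold lower and Ccnd1, cyclin D1, 1.64-fold lower. Nqo1, a quinone reductase, was 1.37-fold higher (adjusted p = 0.0214), a call lost without wild-type replicate 2 or 3 or null replicate 1 or 3 (adjusted p 0.0588 to 0.102). Of the 22 genes, 8 lay below the filter. In replicates 1 and 2 alone, where 2.77% of all genes tested were called, 2 of the list were called.

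Cd44 and Lgals3 are abundant in macrophages, and macrophage markers were lower in the same livers. Of 16 markers tested, 15 were called lower, where 3.13% of all genes tested were called lower. The median log2 fold change of the markers was -0.95. All 16 were called lower with the replicate block, which called 4.41% of all genes lower. It added Cd14, a lipopolysaccharide receptor (limma adjusted p = 0.033). The summed log2 level of the 16 markers was 110.5 to 111.5 in null and 126.7 to 127.4 in wild-type arrays. Marco, a scavenger receptor of Kupffer cells, fell 5.10-fold. Of the Kupffer cell genes, Cd5l, which encodes a secreted scavenger protein, fell 2.22-fold and C1qb, a complement subunit, 2.21-fold. Timd4, a receptor for phosphatidylserine, was called lower too (limma adjusted p = 0.000126), but its null mean of 4.18 lay below the filter, against 5.58 in wild-type liver, so it was tested through its wild-type level and its fold is not given. The part of macrophages in the values of Fos, Jun and the immediate early and target genes was not tested. Of other cell types, none of 4 neutrophil, 8 endothelial and 8 stellate cell markers tested was called in limma. Their median log2 fold changes were 0.05, -0.004 and -0.08. Of 3 cholangiocyte markers tested, 1 was called lower and none higher. Over all genes tested, 4.67% were called in either direction. With the replicate block an endothelial marker was called higher and a stellate cell marker lower. Of 9 tested heat shock genes none was called in either direction in limma, with 3 higher and 1 lower at an unadjusted p under 0.05, and a list median of 0.10. The 4 with the smallest p were Hspb1, a small chaperone (log2 fold change -0.26), and the chaperone genes Hsp90aa1, Hspe1 and Hspa8 (0.24, 0.31 and 0.23).

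**Figure D4:**
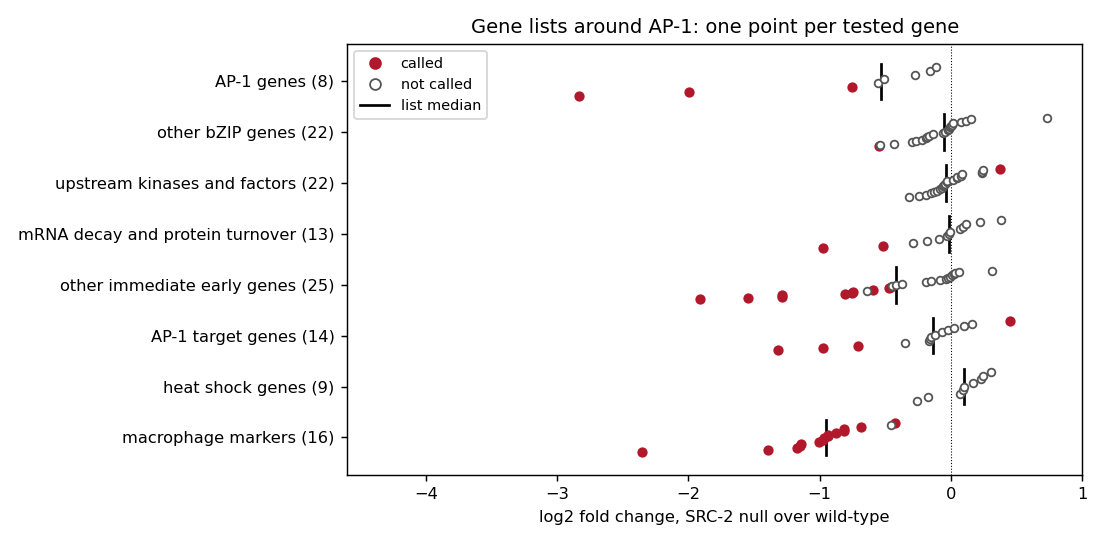
Log2 fold change of SRC-2 null over wild-type liver (horizontal axis) for each tested gene of the AP-1 set and of 7 other lists (vertical axis, number of tested genes in brackets), with called genes filled red, others open and the list median as a black bar. The medians of the tested AP-1 genes, -0.54, and of the other tested immediate early genes, -0.42, lie left of 0 (-0.40 and -0.19 over all those on the array), whereas those of the upstream kinases and of the other bZIP genes lie near 0.

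The 5 genes nearest to Fos and the 5 nearest to Jun over the 6 arrays included none of the listed immediate early genes. Likeness was measured as the root mean square distance between log2 values, each gene centred on its own mean. For Fos the nearest were 9030619P08Rik (distance 0.149), an immunoglobulin kappa variable gene (0.170), Jchain (0.189), which joins antibody chains, the sulfotransferase gene Sult2a2 (0.206) and Marco (0.263). Jun lay nearest to Cd74 (0.132) and H2-Aa (0.174), both of class II antigen presentation, to Thrsp (0.141), a lipogenic regulator, to Rgs16 (0.156), a regulator of G protein signalling, and to Cyp2c70 (0.178), a bile acid hydroxylase. The distance between Fos and Jun themselves was 0.457. The measure favours genes that differ between the genotypes by about as much as Fos or Jun, so that these 10 genes were lower as well follows from how they were chosen. The absence of listed immediate early genes near Fos follows from it too. The most negative log2 fold change among them was -1.92 (Egr1), against -2.84 for Fos and -1.998 for Jun. For Jun, which differed by about as much as Egr1, the absence holds for the 5 nearest genes only, and farther ones are not given. Whether the listed immediate early genes vary together with Fos or Jun within a genotype was not tested.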

How the data were processed

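Total RNA of flash-frozen liver was labelled with biotin, per the labels' protocols. The values are log2 expression values per probe set that the authors deposited, 1 column per array, made with RMA per the submitters' processing notes. The sources used here give neither its version nor a chip description or genome build. Array medians were 4.17 to 4.24, and the number of arrays limits the precision. The labels do not say whether replicates are separate animals, and the spread behind each p-value may therefore be a technical one.

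Gene names came from the platform annotation. Of 34945 non-control probe sets with 1 symbol, 34741 matched a reference gene by number. For each gene the brightest probe set by mean over the 6 arrays was kept, and genes with a mean of at least 4.21 were tested (11894). Genotypes were compared with limma 3.58.1 (lmFit, eBayes, two-sided) in R 4.3.3, with Benjamini-Hochberg adjustment over all genes and calls under 0.05. With 3 arrays against 3, an exact permutation test of a single gene cannot reach that threshold. The 2 replicate 3 arrays deviated together (a correlation of 0.516 across genes), which comes from the data and not from the labels. The same-number pairs of replicates 1 and 2 gave 0.18 and 0.203, about as much as across those numbers (0.166 and 0.206). These values therefore show no pairing by number for replicates 1 and 2. A fit with the replicate number as a block stands beside results it changes.

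The members and gene lists were chosen with earlier results of these data known. Genes named are the 10 members, Ncoa2, up to 4 members of each list with the smallest p, and the 5 genes nearest to Fos and to Jun. Outside that rule, and after their values were seen, the text also names the other 6 immediate early genes called, Elavl1 and Alb. It names Nfkbia, Cd14 and Cd79a as well, which were not called in the main fit but were with the replicate block. Nfkbia and Cd14 were also called under some alternatives without a block, such as the mean of all probe sets. Alternatives covered the probe set choice, the filter, the prior variance, the blocks, centring, and leaving out arrays. Plots were made in Python 3.11.15 (matplotlib 3.10.9).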

Additional observations from a re-analysis of the deposited data

How the results depend on the processing

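Fos and Jun kept their direction and their calls under all 14 alternatives. Of 35 named genes that were called, 27 stayed called without each array in turn. Over 56 named genes, 1 of 774 values reversed, 47 lost a call and 25 gained one, and the cause was not tested. The reversal was Alb, which was never called, at a log2 fold change of 0.0048 without SRC-2 null replicate 3 and a range of -0.0399 to 0.0048 without single arrays. The alternatives for the macrophage count and for single genes outside AP-1 were chosen after seeing the data. The number of AP-1 genes called, 3, was 5 with the replicate block and 2 to 4 without single arrays. It was 5 as well with a replicate 3 block (replicate 3 of both genotypes against replicates 1 and 2), a grouping that the labels do not give. The number of AP-1 probe sets called, 4, was 3 to 5 under its alternatives. With the replicate block Junb, Atf3, Atf5, Cebpb, Nfkbia, Cd14 and Cd79a gained calls, and it changed the call of no other gene among the 56. All genes called, 556, were 982 with the replicate 3 block, 329 in replicates 1 and 2 only, and 275 to 438 without single arrays. The other bZIP count of 1 was 3 with the replicate block, 3 with the replicate 3 block and 2 with an intensity trend. It was 0 with the mean of all probe sets, and 0 to 1 without single arrays. The upstream count of 1 was 0 with the mean of all probe sets, without the filter, in replicates 1 and 2 only, with centred arrays, and without any single array (0). The decay and turnover count of 2 was 1 with the mean of all probe sets, 1 in replicates 1 and 2 only and 1 to 2 without single arrays. The target gene count of 4 was 2 in replicates 1 and 2 only, and the heat shock count of 0 was 1 with the replicate 3 block. Other immediate early genes called ranged from 7 to 11, and macrophage markers from 13 to 16. With a filter at 6 on the log2 scale Maff, Atf3, Fosl2 and Batf are not tested, which leaves 2 AP-1 genes called. Low signal limits Fosb, Fosl1 and Atf3, whose values near background can understate a difference.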
